A study of Homo sapiens with 12 samples.

Results

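Surface antigens and ganglioside enzymes of Ewing sarcoma, a bone and soft tissue tumour of the young driven by a fusion of EWSR1 with an ETS factor, were followed in RNA of TC71 cells labelled ID2 knockout, ID2 knockout with rescue or wild-type. The genes were CD99, STEAP1, STEAP2, CD276, B4GALNT1, ST8SIA1, IL1RAP, NCAM1, THY1 and NGFR, chosen by symbol. All 10 were found among the 21569 genes of the deposited count table, and all 10 were among the 17084 genes tested. ID2 encodes an inhibitor of basic helix-loop-helix factors. The 12 libraries came from TC71, an established Ewing sarcoma cell line, in 4 groups of 3. ID2 knockout clone 1 and ID2 knockout clone 2 are each 1 clone, the rescue line was derived from clone 2 and is also labelled ID2 knockout, and wild-type TC71 is the unedited line. All were grown in DMEM with 10% FBS, and polyadenylated RNA was sequenced with a stranded kit. The labels do not say that the 3 libraries of a group are separate cultures, so p-values measure only how these libraries vary within a group, and that variation may be technical.

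CD99 is a glycoprotein used to recognise Ewing sarcoma under the microscope. STEAP1 and STEAP2 are membrane proteins of a metalloreductase family, CD276 (B7-H3) is a member of the B7 family, and IL1RAP is the shared co-receptor of the interleukin-1 receptor family. ST8SIA1 makes the ganglioside GD3 from GM3, and B4GALNT1 then makes GD2, a glycolipid that is the target of antibodies and engineered T cells in neuroblastoma and has been studied as one in Ewing sarcoma. NCAM1 (CD56) and THY1 (CD90) are immunoglobulin superfamily adhesion proteins of neural and mesenchymal cells, and NGFR (CD271) is the neurotrophin receptor of neural crest and mesenchymal stem cells. The enzymes act on lipids, so their RNA is not a measure of GD2 on the surface, and no protein was measured here.

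Library totals ran from 19420408 to 29748084 counts. ID2 averaged 18.1 ± 0.777 CPM, read counts scaled to library size, in clone 1, 50.9 ± 3.16 CPM in clone 2, 41.5 ± 0.537 CPM in the libraries labelled rescue and 77.9 ± 0.657 CPM in wild-type cells (SD, n = 3 each). ID2 RNA in the libraries labelled rescue was thus not above that of clone 2 (log2 fold change -0.29, adjusted p = 3.52e-06), and a direction drawn from them is that of the label. All 8 of 8 Ewing sarcoma markers, NKX2-2, NR0B1 and PRKCB among them, had reads in each group. The named ones rose in both clones. Of the 8, 6 were called higher and 2 lower (FLI1 and EWSR1) in clone 1 by the test below. In clone 2, 4 were higher and 2 lower (CCND1 and EWSR1). Over all tested genes these shares were 30.8% and 30.7% in clone 1 and 31.5% and 30.6% in clone 2. The summed level of the 8 was 2722 to 2784 CPM in clone 1, 2452 to 2507 CPM in clone 2, 2189 to 2238 CPM in the libraries labelled rescue and 2593 to 2661 CPM in wild-type cells. CCND1 was the largest part of it, at 1545 CPM in clone 1, 1108 CPM in clone 2, 1011 CPM in the libraries labelled rescue and 1355 CPM in wild-type cells.

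The 10 antigens did not move as a block. NCAM1 was almost lost in clone 1 and rose 3.01-fold in clone 2, THY1 and NGFR rose more than 2-fold in clone 1 and were lowest in the libraries labelled rescue, and B4GALNT1 rose in clone 2 and the libraries labelled rescue. CD99, STEAP1, STEAP2, CD276 and IL1RAP, the most abundant of the surface antigens together with NGFR, moved by at most 0.43 on the log2 scale against wild-type cells in any group. STEAP1 fell in both clones and in the libraries labelled rescue, ST8SIA1 rose in all 3, and NGFR rose in both clones. Since RNA came from bulk cells, fewer cells with a transcript and less of it per cell cannot be told apart.

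Levels between genes were set side by side as CPM per kilobase of annotated exon, the union over all annotated transcripts of a gene. The order depends on that length, which can differ from that of the transcript expressed. By CPM alone, CD99 (413) and IL1RAP (282) stood above STEAP1 (267) in wild-type cells. In wild-type cells STEAP1 stood highest, at 164 CPM per kilobase, followed by CD99 at 84.0, IL1RAP at 24.4, STEAP2 at 17.4, NGFR at 15.6 and CD276 at 13.3. THY1 (4.81), B4GALNT1 (3.997), NCAM1 (0.874) and ST8SIA1 (0.516) were the low ones. The order was kept at the top in clone 1 and clone 2, with STEAP1 at 131 and 132 CPM per kilobase and CD99 at 68.6 and 102. Lower down it changed: NGFR stood next after CD99 in clone 1 (37.5), above IL1RAP (25.1), and in the libraries labelled rescue THY1 was the lowest of the 10 (0.209).

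**Figure D1:**
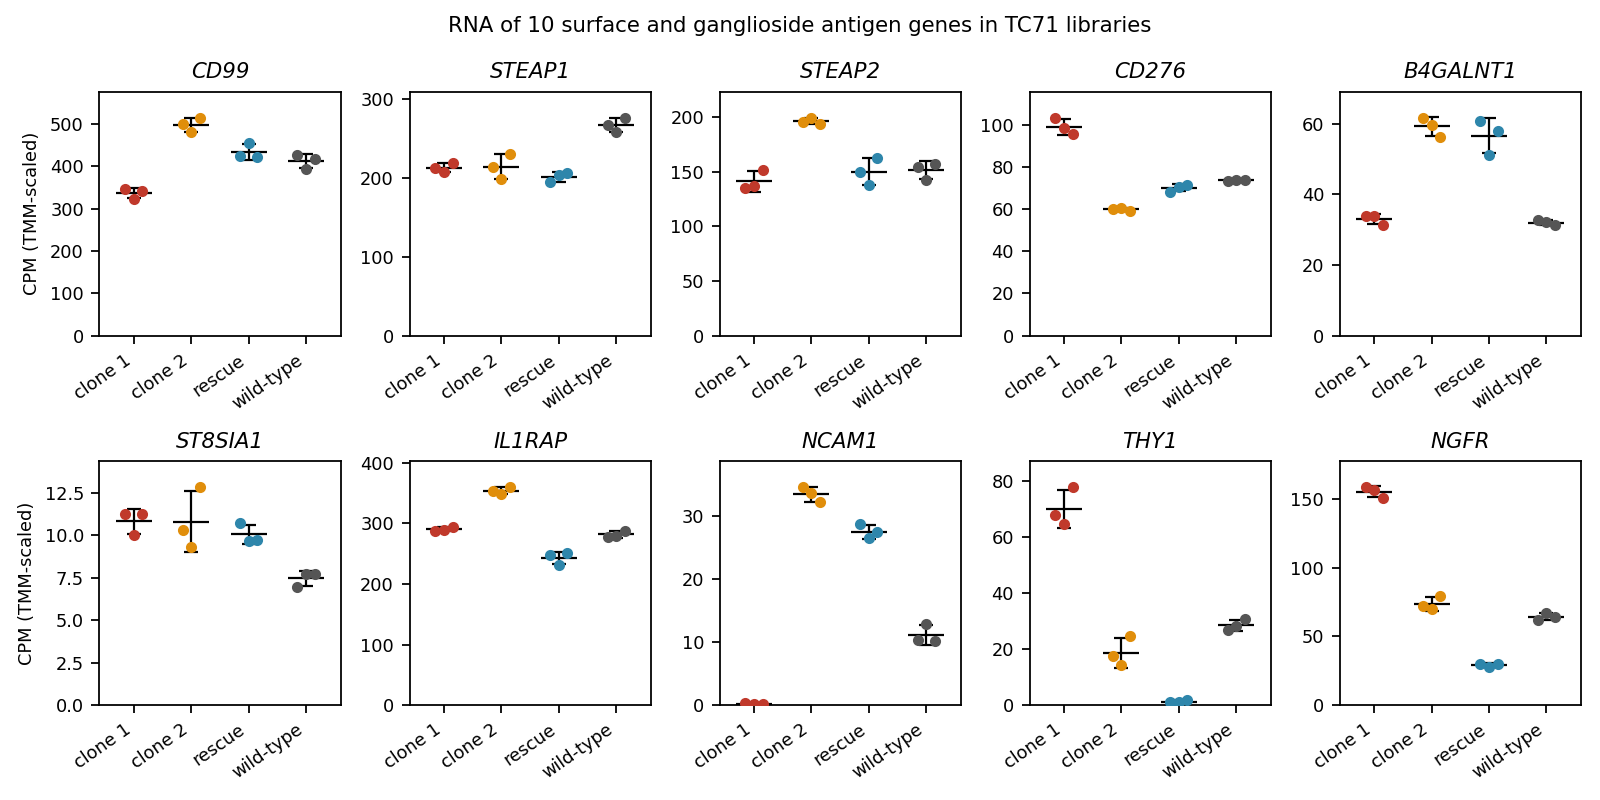
Levels of the 10 antigen and enzyme genes in each library, in CPM on linear axes that start at 0 and differ between panels. Points are single libraries, and the bar with its error is the group mean with 1 SD (n = 3 for clone 1, clone 2, rescue and wild-type). NCAM1 lies near 0 in clone 1, THY1 lies near 0 in the libraries labelled rescue, and STEAP1 is highest in the wild-type libraries.

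Against wild-type cells, 4 of the 10 genes were higher in clone 1 and 3 were lower by edgeR's quasi-likelihood test with Benjamini-Hochberg adjustment over all tested genes. Of all tested genes 61.5% were called in that comparison, 30.8% higher and 30.7% lower, so the 7 of 10 called is near the background. In clone 2 all 10 were called, 7 higher and 3 lower, where 62.1% of all genes were called, 31.5% higher and 30.6% lower. The libraries labelled rescue had 1 gene higher and 6 lower than clone 2, against a background of 39.2% (19.3% higher and 19.9% lower). Compared with wild-type cells they had 3 higher and 4 lower, against 58.4% (28.5% higher and 29.9% lower). Clone 2 set against clone 1 had 5 higher and 3 lower, against 62.2% (30.3% higher and 31.9% lower), and 3 of the 8 were at least 2-fold (background 13.9%). The comparisons with wild-type cells share the same 3 wild-type libraries.

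Few of these changes were large. A called change of at least 2-fold was seen for 3 of the 10 genes in clone 1 (NCAM1, THY1 and NGFR), where 13.7% of all genes reached it. The same size was reached by 1 gene in clone 2 (NCAM1, background 13.3%), by 2 genes in rescue against clone 2 (THY1 and NGFR, background 4.95%) and by 3 genes in rescue against wild-type (NCAM1, THY1 and NGFR, background 10.8%). ST8SIA1 and NGFR were called higher in both clones (background 16.5%) and STEAP1 lower in both (background 17.6%). CD99, CD276, NCAM1 and THY1 were called in opposite directions in the clones, where 10.1% of all genes were. The median log2 fold change of the 10 was 0.04 in clone 1 and 0.30 in clone 2, beside 0.01 over all tested genes in each.

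**Figure D2:**
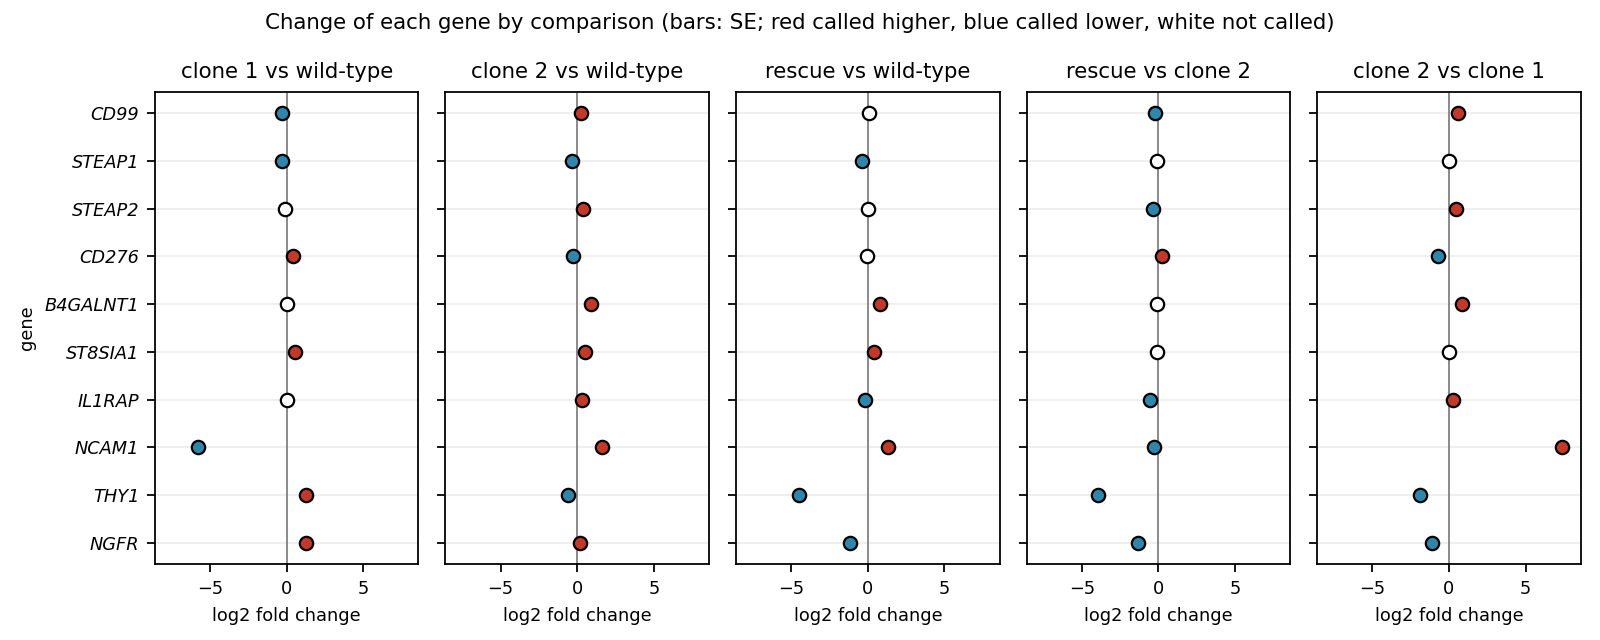
Log2 fold changes of the 10 genes in the 5 comparisons, with bars of 1 SE that are mostly smaller than the points. Red points were called higher and blue points lower by edgeR at an adjusted p under 0.05, and white points were not called. NCAM1 runs from -5.80 in clone 1 to 1.60 in clone 2 against wild-type cells, and THY1 reaches -4.52 in rescue against wild-type cells.

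CD99 (ENSG00000002586, hg38 chrX:2691133-2741309, plus strand) had 346, 323 and 342 CPM in the clone 1 libraries, 500.3, 482 and 515 CPM in clone 2, 425, 455 and 422 CPM in the libraries labelled rescue, and 426, 394 and 418 CPM in wild-type cells. All clone 1 libraries lay below and all clone 2 libraries above the wild-type range, and the rescue and wild-type ranges overlapped. CD99 fell by 0.29 on the log2 scale in clone 1 (SE 0.035, adjusted p = 1.83e-09) and rose by 0.27 in clone 2 (SE 0.035, adjusted p = 7.61e-09). CD99 was lower in the libraries labelled rescue than in clone 2 (log2 fold change -0.20, adjusted p = 8.5e-06), and their difference from wild-type cells did not pass the test (0.07, adjusted p = 0.077). CD99 lies in the pseudoautosomal region, which the X and Y chromosomes share, and CD99P1 is a partial copy beside it, so how the authors' counting treated reads that match both is uncertain. CD99P1 fell in both clones (log2 fold change -0.43 in clone 1 and -0.41 in clone 2).

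Of 5 genes of the CD99 family and its receptors, 4 were higher and 1 lower in clone 1, and 4 were higher and none lower in clone 2. Where a list holds any of the 10 genes, as this one holds CD99, they are counted in it. Each count of a list called, here and below, stands beside 30.8% higher and 30.7% lower over all tested genes in clone 1. In clone 2 these shares were 31.5% and 30.6%, and counts near them are not results about a list. XG, the neighbour and relative of CD99 that carries a blood group antigen, averaged 59.8 CPM in clone 1, 89.4 CPM in clone 2 and 45.5 CPM in wild-type cells (log2 fold changes 0.39 and 0.97). PILRA, an inhibitory receptor for which CD99 has been described as a ligand in mice, averaged 1.87 CPM in clone 1, 1.70 CPM in clone 2 and 1.09 CPM in wild-type cells and rose in both clones (log2 fold changes 0.76 and 0.64). PILRB, its activating partner, rose by 0.27 in clone 1 and by 0.33 in clone 2 on the log2 scale.

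STEAP1 and STEAP2 are neighbours on the plus strand of chromosome 7, with 2760 bases between the end of STEAP1 and the start of STEAP2. STEAP1 (ENSG00000164647, hg38 chr7:90154375-90164829) fell in all 3 derived lines, and STEAP2 (ENSG00000157214, hg38 chr7:90167590-90238137) rose in clone 2. The 250 bases before the RefSeq start of STEAP1, before a RefSeq start of STEAP2 and before that of ST8SIA1 are shown because ID2 acts on factors that bind E-boxes, spelled CANNTG. STEAP1 and ST8SIA1 are those of the 3 genes called alike in both clones that have an entry. The sequences are from RefSeq, build GRCh38.p14, 5′ to 3′, at chr7:90154219-90154468 (plus strand), chr7:90211490-90211739 (plus strand) and chr12:22334708-22334957 (minus strand), with each match to CANNTG in capitals.
STEAP1: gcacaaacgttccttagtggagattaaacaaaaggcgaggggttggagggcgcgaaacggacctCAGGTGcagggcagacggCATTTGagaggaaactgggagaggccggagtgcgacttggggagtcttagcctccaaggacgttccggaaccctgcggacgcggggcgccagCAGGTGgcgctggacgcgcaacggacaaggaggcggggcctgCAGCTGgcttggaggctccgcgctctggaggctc
STEAP2: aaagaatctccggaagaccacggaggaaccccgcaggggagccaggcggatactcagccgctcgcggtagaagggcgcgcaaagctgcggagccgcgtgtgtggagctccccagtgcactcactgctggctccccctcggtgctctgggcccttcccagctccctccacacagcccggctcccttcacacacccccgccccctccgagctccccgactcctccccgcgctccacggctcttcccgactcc
ST8SIA1: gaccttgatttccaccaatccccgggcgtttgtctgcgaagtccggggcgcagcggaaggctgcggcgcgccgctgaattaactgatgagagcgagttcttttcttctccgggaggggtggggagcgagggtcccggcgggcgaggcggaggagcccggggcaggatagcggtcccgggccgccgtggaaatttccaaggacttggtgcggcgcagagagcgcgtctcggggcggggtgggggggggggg

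The STEAP1 window held 4 matches to CANNTG, which reads the same on both strands, starting 186, 168, 76 and 34 bases before the start. Those at 186 and 76 bases read CAGGTG and the one at 34 bases reads CAGCTG, both forms of CANNTG. Promoter entries matched 6 of the 10 genes, with 8 windows of 300 bases (250 before the start and 50 after), and the other 7 windows held no CANNTG. Of 35116 RefSeq promoter windows of that length, 68.7% held at least 1 CANNTG, with a mean of 1.29 matches, 20.6% held CAGGTG on either strand and 17.9% held CAGCTG. GGAAGGAA, a pair of the GGAA units that the Ewing sarcoma fusion factors bind, was searched on both strands and was in none of the 8 windows and in 3.67% of all windows. All 3 RefSeq starts shown lie inside the GENCODE spans of their genes, and the STEAP1 matches at 76 and 34 bases also lie inside that span. A match describes letters only.

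STEAP1 had 212, 207 and 219 CPM in clone 1, 214, 199 and 230 CPM in clone 2, 194, 203 and 206 CPM in the libraries labelled rescue, and 267, 258 and 276 CPM in wild-type cells. Every library of the derived lines was below every wild-type library. STEAP1 fell by 0.33 on the log2 scale in clone 1 (SE 0.038, adjusted p = 9.67e-10), by 0.32 in clone 2 (adjusted p = 1.94e-09) and by 0.41 in the libraries labelled rescue (adjusted p = 3.31e-12). The libraries labelled rescue did not pass the test against clone 2 (log2 fold change -0.09, SE 0.039, adjusted p = 0.0591).

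STEAP2 had 135, 137 and 152 CPM in clone 1, 195, 199 and 194 CPM in clone 2, 150.0, 138 and 163 CPM in the libraries labelled rescue, and 154, 142 and 157 CPM in wild-type cells. Only the clone 2 libraries stood apart, and the other 3 groups overlapped. STEAP2 rose by 0.37 in clone 2 on the log2 scale (SE 0.044, adjusted p = 1.66e-09) and was lower in the libraries labelled rescue than in clone 2 (log2 fold change -0.38, adjusted p = 2.56e-09). Against wild-type cells the log2 fold change was -0.10 in clone 1 (adjusted p = 0.051) and -0.01 in the libraries labelled rescue (adjusted p = 0.828).

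The neighbours therefore differed in their ratio. STEAP1 reads per STEAP2 read were 1.58, 1.51 and 1.44 in clone 1, 1.10, 0.997 and 1.19 in clone 2, 1.29, 1.48 and 1.27 in the libraries labelled rescue, and 1.73, 1.82 and 1.76 in wild-type cells. Every wild-type library had the higher ratio, and clone 2 had the lowest. Within 5 Mb of STEAP1 lay 40 other tested genes at a mean of 1 CPM or more. Their median log2 fold change was -0.24 in clone 1 and 0.06 in clone 2. STEAP1 in clone 1 was thus near its surroundings and in clone 2 was below them. STEAP1B, a copy of STEAP1 that may share reads with it, was low, at 2.14 CPM in clone 1, 1.69 CPM in clone 2, 1.11 CPM in the libraries labelled rescue and 2.75 CPM in wild-type cells. STEAP3, the endosomal ferrireductase of the family, was named after its values were seen and averaged 82.6 CPM in clone 1, 32.2 CPM in clone 2, 31.8 CPM in the libraries labelled rescue and 50.02 CPM in wild-type cells (log2 fold changes 0.72, -0.63 and -0.65 against wild-type cells, all called). An antisense gene, STEAP2-AS1, had too few reads to be tested.

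CD276 (ENSG00000103855, hg38 chr15:73683966-73714518, plus strand) had 103, 98.3 and 95.7 CPM in clone 1, 60.0, 60.3 and 59.2 CPM in clone 2, 68.2, 70.6 and 71.6 CPM in the libraries labelled rescue, and 73.1, 73.9 and 73.7 CPM in wild-type cells. No 2 groups overlapped. CD276 rose by 0.43 on the log2 scale in clone 1 (SE 0.038, adjusted p = 8.61e-13), fell by 0.30 in clone 2 (SE 0.040, adjusted p = 3.02e-08), and was the only 1 of the 10 genes called higher in the libraries labelled rescue than in clone 2 (log2 fold change 0.23, adjusted p = 1.27e-05). Its difference of the libraries labelled rescue from wild-type cells did not pass the test (log2 fold change -0.07, adjusted p = 0.129). Of 3 tested genes of the B7 family, NCR3LG1 (B7-H6), a ligand of the natural killer receptor NKp30, fell in both clones and averaged 60.1 CPM in clone 1, 62.4 CPM in clone 2, 50.7 CPM in the libraries labelled rescue and 98.2 CPM in wild-type cells.

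IL1RAP (ENSG00000196083, hg38 chr3:190514051-190659750, plus strand) had 287, 290 and 294 CPM in clone 1, 354, 349 and 359 CPM in clone 2, 247, 232 and 251 CPM in the libraries labelled rescue, and 277, 280 and 288 CPM in wild-type cells. Clone 2 stood above and the libraries labelled rescue below all others, whereas clone 1 and wild-type cells overlapped. IL1RAP rose by 0.33 on the log2 scale in clone 2 (SE 0.032, adjusted p = 8.27e-12). It was lower in the libraries labelled rescue than in clone 2 (log2 fold change -0.54, adjusted p = 2.26e-17) and than in wild-type cells (-0.21, adjusted p = 3.62e-07). The change in clone 1 did not pass (0.04, adjusted p = 0.237).

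Of 5 tested genes of the interleukin-1 receptor family and its signalling, 2 were higher and 1 lower in clone 1, and 3 were higher and 2 lower in clone 2. MYD88, the adaptor of these receptors, fell in both clones and averaged 40.4 CPM in clone 1, 27.9 CPM in clone 2, 40.6 CPM in the libraries labelled rescue and 51.3 CPM in wild-type cells. IRAK1, a kinase that acts after MYD88, rose by 0.14 in clone 1 and by 0.11 in clone 2 on the log2 scale. SLC7A11, the subunit of the cystine importer that defines its substrate, is listed because IL1RAP has been tied to cystine uptake in Ewing sarcoma. It fell in both clones, and averaged 20.1 CPM in clone 1, 33.7 CPM in clone 2, 37.4 CPM in the libraries labelled rescue and 46.0 CPM in wild-type cells.

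The GD2 synthase gene B4GALNT1 (ENSG00000135454, hg38 chr12:57623410-57633355, minus strand) had 33.8, 33.9 and 31.4 CPM in clone 1, 61.6, 59.7 and 56.3 CPM in clone 2, 60.6, 51.1 and 57.9 CPM in the libraries labelled rescue, and 32.6, 32.0 and 31.3 CPM in wild-type cells. The libraries fell on 2 levels, with clone 2 and its rescue line on the upper one and clone 1 and wild-type cells on the lower. B4GALNT1 rose by 0.89 on the log2 scale in clone 2 (SE 0.054, adjusted p = 8.97e-18) and by 0.82 in the libraries labelled rescue (adjusted p = 9.04e-17). Clone 1 did not pass the test against wild-type cells (0.05, adjusted p = 0.494), nor did rescue against clone 2 (-0.07, adjusted p = 0.299).

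ST8SIA1 (ENSG00000111728, hg38 chr12:22063773-22437041, minus strand), the GD3 synthase gene, had 11.3, 9.99 and 11.2 CPM in clone 1, 10.3, 9.31 and 12.8 CPM in clone 2, 10.7, 9.69 and 9.75 CPM in the libraries labelled rescue, and 6.96, 7.72 and 7.72 CPM in wild-type cells. Every derived library was above every wild-type library, and the 3 derived groups overlapped each other. ST8SIA1 rose by 0.53 on the log2 scale in clone 1 (SE 0.098, adjusted p = 1.2e-05) and in clone 2 (adjusted p = 1.18e-05), and by 0.43 in the libraries labelled rescue (adjusted p = 0.000246). It was the lowest of the 10 genes per kilobase in wild-type cells. B4GALNT1 reads per ST8SIA1 read were 3.01, 3.40 and 2.79 in clone 1, 5.99, 6.41 and 4.39 in clone 2, 5.66, 5.27 and 5.94 in the libraries labelled rescue, and 4.68, 4.15 and 4.06 in wild-type cells, so clone 1 had the lowest ratios.

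The 14 tested ganglioside synthesis genes include ST8SIA1 and B4GALNT1. In clone 1, 7 were higher, ST8SIA1 among them, and 4 lower (median log2 fold change 0.17). In clone 2, 3 were higher, ST8SIA1 and B4GALNT1 among them, and 5 lower (median -0.06). In the libraries labelled rescue 3 were higher than in wild-type cells, again with ST8SIA1 and B4GALNT1, and 7 lower (median -0.19). Over all tested genes 28.5% were higher and 29.9% lower in that comparison. ST3GAL1, a sialyltransferase that caps galactose on more complex structures, fell in both clones and averaged 1.45 ± 0.223 CPM in clone 1, 2.59 ± 0.330 CPM in clone 2 and 4.23 ± 0.467 CPM in wild-type cells (SD, n = 3 each). ST6GALNAC3, which adds a branching sialic acid, fell by 1.96 in clone 1 and by 0.88 in clone 2 on the log2 scale. ST3GAL5 and UGCG were named for their place before ST8SIA1 after their values were seen. ST3GAL5, which makes GM3, averaged 24.1 CPM in clone 1, 19.6 CPM in clone 2, 11.8 CPM in the libraries labelled rescue and 20.7 CPM in wild-type cells, with log2 fold changes of 0.22 in clone 1 (called), -0.08 in clone 2 (not called) and -0.81 in the libraries labelled rescue (called). UGCG, which makes the glucosylceramide that all these lipids start from, averaged 26.0 CPM in clone 1, 20.6 CPM in clone 2, 15.3 CPM in the libraries labelled rescue and 23.7 CPM in wild-type cells.

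Of 13 tested breakdown genes, 7 were higher and 1 lower in clone 1 (median log2 fold change 0.19), and 7 higher and 2 lower in clone 2 (0.11), beside a median of 0.01 over all genes in each. NEU4, a sialidase, averaged 5.81 ± 1.24 CPM in clone 1, 13.8 ± 1.30 CPM in clone 2, 7.24 ± 0.317 CPM in the libraries labelled rescue and 0.507 ± 0.236 CPM in wild-type cells (SD, n = 3 each). Its log2 fold changes were 3.50 in clone 1 and 4.73 in clone 2. PSAP, the precursor of the saposins, rose by 0.42 in clone 1 and by 0.56 in clone 2 on the log2 scale.

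**Figure D3:**
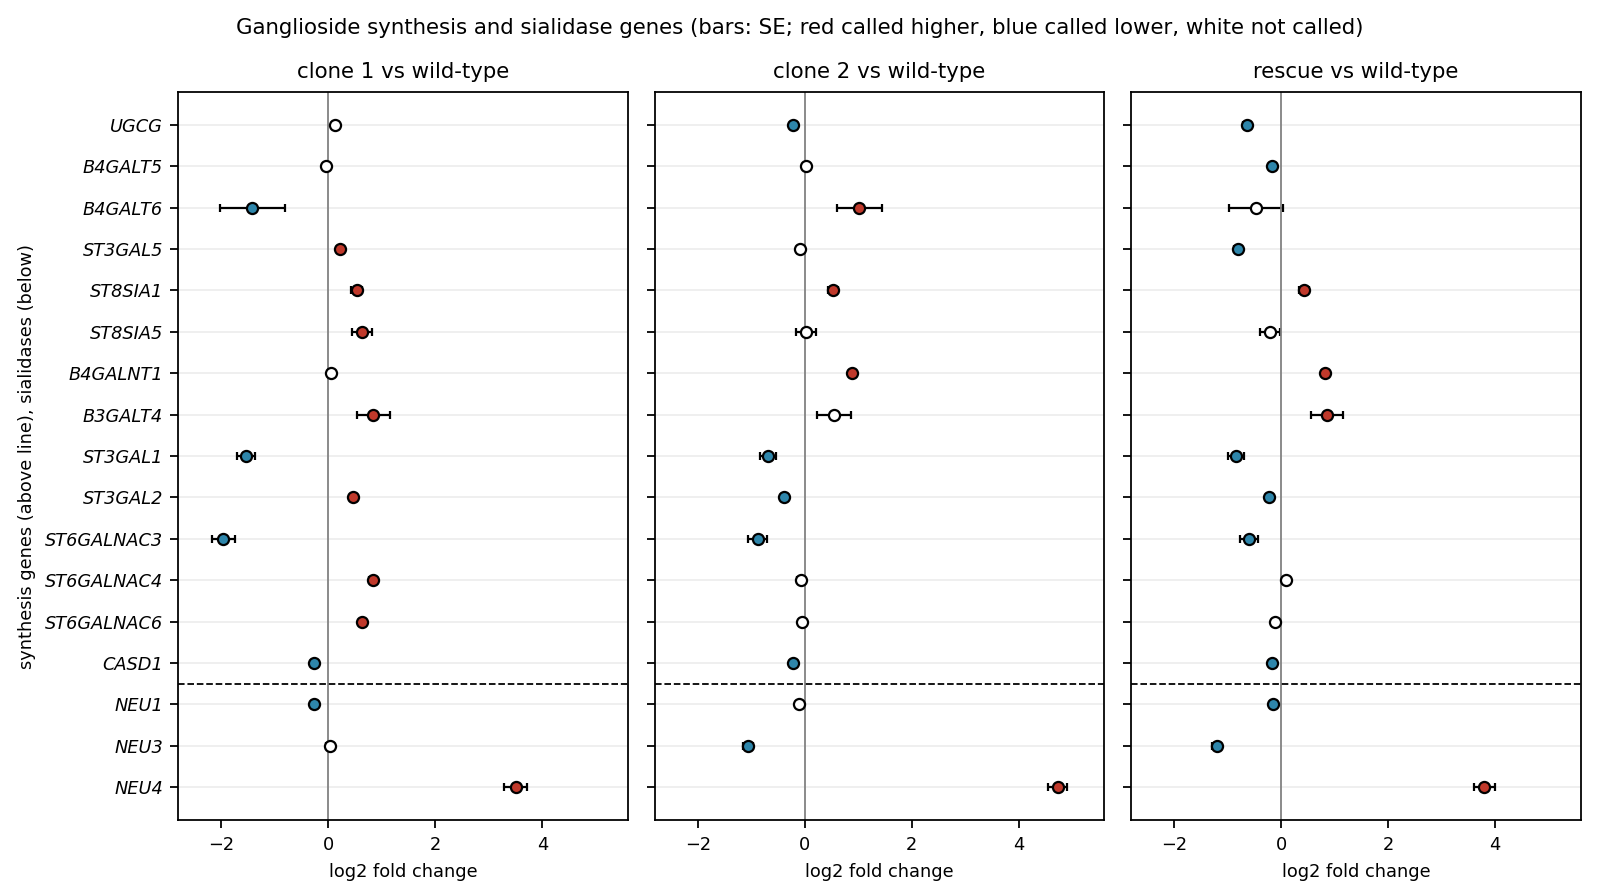
Log2 fold changes against wild-type cells of the tested ganglioside synthesis genes (above the dashed line) and sialidase genes (below it) in clone 1, clone 2 and the libraries labelled rescue, with bars of 1 SE. Red points were called higher and blue points lower by edgeR, and white points were not called. B4GALNT1 is at 0.05, 0.89 and 0.82, ST8SIA1 at 0.53, 0.53 and 0.43, and NEU4 is farthest to the right in each panel.

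NCAM1 (ENSG00000149294, hg38 chr11:112961247-113278436, plus strand) changed most. It had 0.300, 0.142 and 0.165 CPM in clone 1, 34.6, 33.7 and 32.2 CPM in clone 2, 28.7, 26.5 and 27.4 CPM in the libraries labelled rescue, and 10.4, 12.9 and 10.1 CPM in wild-type cells. No 2 groups overlapped, and clone 1 rested on 6, 4 and 4 reads, against 247, 273 and 293 in the wild-type libraries. NCAM1 fell by 5.80 on the log2 scale in clone 1 (SE 0.20, adjusted p = 5.43e-26), to 0.0182 of the wild-type level. It rose by 1.60 in clone 2 (SE 0.071, adjusted p = 4.85e-22) and by 1.32 in the libraries labelled rescue (adjusted p = 4.04e-19), which were below clone 2 (log2 fold change -0.28, adjusted p = 0.000237). Clone 2 was 166-fold above clone 1. Of 6 neuronal markers 4 were in the table, with a summed level of 6.04 to 6.55 CPM in clone 1, 9.07 to 9.49 CPM in clone 2, 6.09 to 7.26 CPM in the libraries labelled rescue and 4.32 to 6.07 CPM in wild-type cells. SYP, a synaptic vesicle gene, made up most of that sum, at 5.35 CPM in clone 1 and 4.43 CPM in wild-type cells (not called). TUBB3, a neuronal tubulin, rose in both clones (log2 fold changes 1.62 and 2.35), whereas ELAVL4, a neuronal RNA-binding protein gene, fell in clone 1 and rose in clone 2 as NCAM1 did, at 0.0119 CPM in clone 1, 0.911 CPM in clone 2 and 0.228 CPM in wild-type cells. Their part in the result was not tested.

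Of the 4 genes for NCAM proteins and the enzymes that put polysialic acid on them, 2 were higher and 2 lower in clone 1, and 3 were higher and 1 lower in clone 2. ST8SIA4, a polysialyltransferase, rose in both clones and averaged 2.30 CPM in clone 1, 5.06 CPM in clone 2, 3.78 CPM in the libraries labelled rescue and 1.58 CPM in wild-type cells. The other polysialyltransferase, ST8SIA2, and the relative NCAM2 were named after their values were seen. ST8SIA2 averaged 6.89 CPM in clone 1, 1.77 CPM in clone 2, 1.41 CPM in the libraries labelled rescue and 4.67 CPM in wild-type cells, and rose in clone 1 (0.56) and fell in clone 2 (log2 fold change -1.42). NCAM2 followed NCAM1 in sign, with log2 fold changes of -0.51 in clone 1 and 1.39 in clone 2. Among 8 tested neural immunoglobulin adhesion genes 3 were higher and 4 lower in clone 1, and 6 were higher and 1 lower in clone 2. NRCAM rose in both clones (0.67 and 0.75), as did ALCAM (0.58 and 0.39), and MCAM fell in both (-0.64 and -2.53).

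THY1 (ENSG00000154096, hg38 chr11:119417378-119424985, minus strand) had 67.7, 64.6 and 77.7 CPM in clone 1, 17.5, 14.2 and 24.6 CPM in clone 2, 1.03, 0.969 and 1.72 CPM in the libraries labelled rescue, and 26.7, 28.1 and 30.6 CPM in wild-type cells. The 4 groups did not overlap, and the libraries labelled rescue had 28, 25 and 45 reads. THY1 rose by 1.29 on the log2 scale in clone 1 (SE 0.083, adjusted p = 3.79e-17) and fell by 0.61 in clone 2 (SE 0.099, adjusted p = 1.11e-06). The libraries labelled rescue were lower than clone 2 (log2 fold change -3.92, SE 0.18, adjusted p = 6.21e-21) and than wild-type cells (-4.52, SE 0.16, adjusted p = 7.23e-25). Fibroblast and stromal markers moved alongside in part. All 7 of 7 had reads in each group, and their summed level was 570 to 596 CPM in clone 1, 195 to 203 CPM in clone 2, 120 to 129 CPM in the libraries labelled rescue and 252 to 255 CPM in wild-type cells. COL1A2, a defining fibroblast collagen gene, was near 0 throughout, at 0.323 CPM in clone 1, 0.0439 CPM in clone 2, 0.0506 CPM in the libraries labelled rescue and 0.0316 CPM in wild-type cells. DCN and PDGFRB had the signs of THY1 in both clones and in rescue against clone 2. Others did not: COL1A1 rose in clone 2 (65.1 CPM, against 27.4 CPM in wild-type cells) and LUM fell in clone 1 (2.46 CPM, against 3.77 CPM in wild-type cells). COL3A1 (80.3 against 58.3 CPM) and LUM (0.229 against 0.0323 CPM) rose in the libraries labelled rescue against clone 2. For LUM this rested on 18 reads in the libraries labelled rescue and 2 in clone 2. The part of these markers in the result was not tested.

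NGFR (ENSG00000064300, hg38 chr17:49495293-49515017, plus strand) ran in the same order as THY1 at the ends. It had 159, 157 and 151 CPM in clone 1, 71.9, 69.7 and 79.6 CPM in clone 2, 30.2, 27.5 and 30.1 CPM in the libraries labelled rescue, and 62.1, 67.2 and 64.2 CPM in wild-type cells. The groups did not overlap, though clone 2 and wild-type cells lay close. NGFR rose by 1.27 on the log2 scale in clone 1 (SE 0.043, adjusted p = 1.93e-26) and by 0.19 in clone 2 (SE 0.045, adjusted p = 0.000293). It was lower in the libraries labelled rescue than in clone 2 (log2 fold change -1.33, SE 0.050, adjusted p = 7.5e-24) and than in wild-type cells (-1.14, adjusted p = 4.24e-22). An antisense gene, NGFR-AS1, had too few reads to be tested, and the strand setting of the counting is not known here. Of 6 Schwann cell and neural crest markers 4 were in the table, with a summed level of 39.6 to 43.8 CPM in clone 1, 49.5 to 50.9 CPM in clone 2, 57.2 to 60.7 CPM in the libraries labelled rescue and 40.0 to 41.0 CPM in wild-type cells, an order unlike that of NGFR. Of 6 epithelial markers 4 were in the table, none at 0. All 4 rose in both clones, as NGFR did, whereas THY1 fell in clone 2. Their sum was 883 to 951 CPM in clone 1, 152 to 191 CPM in clone 2, 76.9 to 86.7 CPM in the libraries labelled rescue and 115 to 122 CPM in wild-type cells. Their part was not tested.

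Among 7 tested neurotrophin and receptor genes 3 were higher and 2 lower in clone 1, and 3 were higher and 1 lower in clone 2. SORT1, a sorting receptor that pairs with NGFR to bind neurotrophin precursors, was named after its values were seen. It averaged 57.3 CPM in clone 1, 118 CPM in clone 2, 119 CPM in the libraries labelled rescue and 86.2 CPM in wild-type cells, so its order among the clones was the reverse of that of NGFR.

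NCAM1 and THY1 both lie on the long arm of chromosome 11, where clone 2 RNA was low as a whole. The genes compared were tested genes at a mean of 1 CPM or more over the 12 libraries, leaving out the gene itself. Over 710 such genes of chromosome 11 the median log2 fold change of clone 2 against wild-type cells was -0.60. Over the 42 within 5 Mb of NCAM1 it was -0.64, with quartiles of -0.79 and -0.53. THY1, at -0.61, stood at that level, below which 49.2% of the 710 genes lay. NCAM1, at 1.60, stood above 98.3% of them. In clone 1 the chromosome 11 median was near 0 (-0.01), and NCAM1 at -5.80 was below all 710 genes compared. Genes under 1 CPM were not part of that set. THY1 in the libraries labelled rescue, at -4.52 against wild-type cells, was far below the median of -0.63 within 5 Mb. For B4GALNT1 in clone 2 (0.89) the median was -0.03 over 739 genes of chromosome 12 and 0.02 over the 130 genes within 5 Mb, and for NGFR in clone 1 (1.27) it was 0.04 over 779 genes of chromosome 17. The number of copies of these regions was not measured here.

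**Figure D4:**
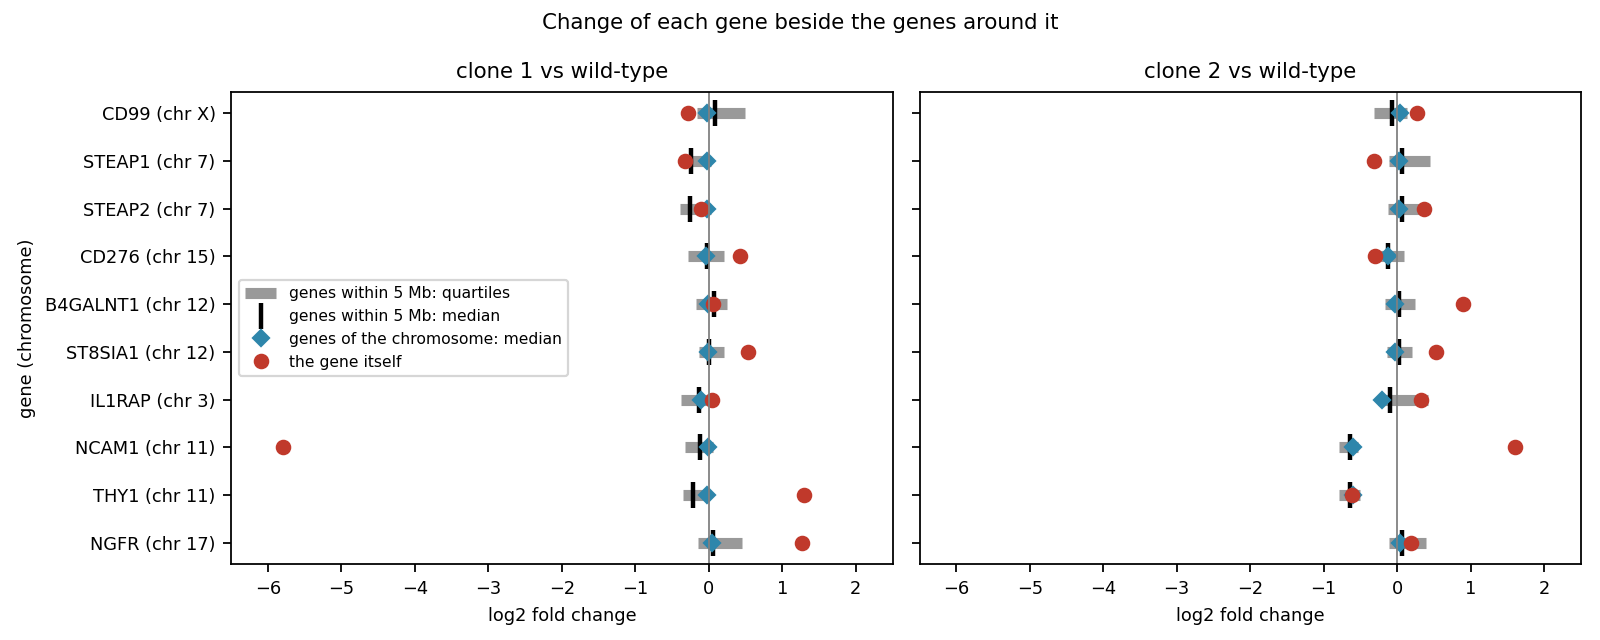
Log2 fold change of each of the 10 genes (red point) beside the median (black tick) and quartiles (grey bar) of tested genes within 5 Mb of it and the median of its chromosome (blue diamond), for clone 1 and clone 2 against wild-type cells. Medians and quartiles are over tested genes at a mean of 1 CPM or more. In clone 2, THY1 lies on the median of its surroundings (-0.61 and -0.64) and NCAM1 lies far above its own (1.60 and -0.64).

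Over the 12 libraries the 10 genes had different nearest neighbours in expression, taken as the highest Pearson r of log2 CPM. This is a description over 4 groups and not over 12 independent states. The search took 10771 or 10772 genes with a symbol, at a mean of 1 CPM or more. It left out clone-based, LINC, antisense and pseudogene forms of name, and with them coding genes whose symbol ends like that of a pseudogene. STEAP1, STEAP2 and IL1RAP were among those left out, so closer genes may have been missed. NCAM1 ran closest to TRO (r = 0.996) and SLC37A1 (0.995), THY1 to ZMAT4 (0.992) and SEPTIN6 (0.992), and NGFR to TGFA (0.994) and BTG2 (0.994). TGFA, a ligand of the epidermal growth factor receptor, averaged 34.2 CPM in clone 1, 6.50 CPM in clone 2, 1.20 CPM in the libraries labelled rescue and 6.39 CPM in wild-type cells. CD99 ran closest to RBM11 (0.984) and TPT1 (0.98), STEAP1 to EIF3E (0.977) and MDH1 (0.964), STEAP2 to KHDC4 (0.97) and TRIM23 (0.945), and CD276 to WASF2 (0.989) and the collagen gene COL3A1 (0.988). B4GALNT1 ran closest to PEX6 (0.991) and RNPC3 (0.99), ST8SIA1 to PNPLA6 (0.926) and OPRL1 (0.923), and IL1RAP to SCNN1G (0.991) and CD79A (0.982). Between the 10 genes themselves r was 0.94 for THY1 and NGFR, 0.911 for CD99 and NCAM1, and -0.966 for CD99 and CD276.

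Other surface targets studied in Ewing sarcoma were measured for comparison. Of 20 such genes 9 were higher and 8 lower in clone 1, 4 were higher and 11 lower in clone 2, and 2 were higher and 14 lower in the libraries labelled rescue than in wild-type cells. Over all tested genes the shares higher and lower were 30.8% and 30.7% in clone 1 and 31.5% and 30.6% in clone 2. For the libraries labelled rescue they were 28.5% and 29.9%. ADGRG2, an orphan adhesion receptor, rose in both clones and averaged 196 CPM in clone 1, 153 CPM in clone 2, 126 CPM in the libraries labelled rescue and 102 CPM in wild-type cells. CDH11, a mesenchymal cadherin, fell in both and averaged 156 CPM in clone 1, 231 CPM in clone 2, 175 CPM in the libraries labelled rescue and 287 CPM in wild-type cells. PDGFRA, a receptor tyrosine kinase, fell in both clones to a few reads. It averaged 0.0874 CPM in clone 1 (6 reads over the group), 0.0492 CPM in clone 2 (3 reads), 0.0255 CPM in the libraries labelled rescue (2 reads) and 8.84 CPM in wild-type cells (653 reads).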

How the data were processed

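Libraries were put into groups by their titles. The authors deposited raw counts of reads for each gene, under Ensembl identifiers. FastQC, STAR and the hg38 build are named in the submitters' processing notes. Which counter, strand setting and annotation were used is not given in the sources used here, so antisense and near-identical genes are uncertain. The main test was edgeR 4.0.16 under R 4.3.3 (quasi-likelihood test, TMM scaling, minimum count 10 in the expression filter, all 12 libraries in 1 fit, 8 residual degrees of freedom, Benjamini-Hochberg adjustment over 17084 genes, called under 0.05). The SE of a log2 fold change was taken as its absolute value divided by the square root of the F statistic of that test. The tested genes held at least 99.93% of each library's counts. limma 3.58.1 (voom), DESeq2 1.42.0, other scalings and filters, a replicate block and leaving out each library were alternatives. CPM used TMM-scaled totals, divided per kilobase by the exon union of GENCODE release 29, which gave coordinates. Within groups, libraries differed beyond sampling noise (chi-square per degree of freedom 1.54 to 3.16).

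The members and lists were chosen with earlier results of these data known. Beside the 10 genes and ID2, the text names up to 3 genes of each list called alike in both clones, those with the larger changes, at a mean of 1 CPM or more, the 2 nearest patterns per gene, and copies and antisense genes. STEAP3, ST3GAL5, UGCG, ST8SIA2, NCAM2 and SORT1 fall outside this and were named after their values were seen. So do the cell type markers PRKCB, CCND1, FLI1, COL1A2, COL3A1, DCN, PDGFRB, SYP and ELAVL4, also named after their values were seen. Some genes that this rule takes are not reported here.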

Additional observations from a re-analysis of the deposited data

Results flagged for a closer look

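For 8 of the 10 genes the change from wild-type cells differed between the knockout clones by edgeR's test of clone 2 against clone 1. The difference, clone 2 minus clone 1 on the log2 scale, was 7.40 for NCAM1, 0.84 for B4GALNT1, 0.57 for CD99, 0.47 for STEAP2 and 0.29 for IL1RAP. It was -1.90 for THY1, -1.08 for NGFR and -0.73 for CD276. Of all tested genes 62.2% were called in that comparison. STEAP1 (0.01, adjusted p = 0.86) and ST8SIA1 (0.00, adjusted p = 0.977) did not pass that test.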

How the results depend on the processing

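Of 50 fold changes of the 10 genes, 39 were called, and none of the 39 was lost or reversed under 9 other settings or when each of the 12 libraries was left out. Among changes that were not called, the sign turned for STEAP2 in rescue against wild-type under upper quartile scaling (0.0304), for STEAP1 in clone 2 against clone 1 with no filter (-0.0064), and for ST8SIA1 in clone 2 against clone 1 with TMM from genes outside chromosomes 8, 11, 13, 18 and 19 (-0.0037), no filter (-0.0108), limma-voom (-0.004) and the replicate block (-0.0023). Leaving out 1 library gave -0.0743 to 0.0415, -0.0443 to 0.0562 and -0.127 to 0.0846 for these, -0.1726 to 0.039 for ST8SIA1 and -0.1079 to 0.0099 for B4GALNT1 in rescue against clone 2. The cause was not tested. Counts of genes called stayed within 1.5 times, but the balance of directions over all tested genes moved with the scaling. Under upper quartile scaling 60.1% of genes called in clone 2 against wild-type were higher, against 50.7% in the main fit. In rescue against clone 2 it was 41.8%, against 49.3%. STEAP2 in clone 1, CD99 and CD276 in rescue against wild-type and STEAP1 in rescue against clone 2 were called under some settings.

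Same-numbered libraries correlated by -0.0824 to 0.116 in their deviations from the group means, and in 0 of 6 pairs of groups were all 3 over 0.1. A cutoff of 0.1 cannot exclude a pairing, and the main test used none. In 1 pair of groups, clone 1 and clone 2, every library correlated best with its own number, a hint from the data and not the design. With the replicate block, STEAP2 in clone 1 (-0.0989, adjusted p = 0.0266, edgeR) and STEAP1 in rescue against clone 2 (-0.0892, adjusted p = 0.0313) were also called, which made 4 lower in clone 1 and 7 in rescue against clone 2.

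Each knockout is 1 clone, and only 14 reads support NCAM1 in clone 1.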

Other observations

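Ligands that natural killer cells read on tumour cells were among the other surface genes. Of 6 tested ligands of the receptors NKG2D and DNAM-1, 1 was higher and 4 lower in clone 1, and 3 were higher and 3 lower in clone 2. The shares over all tested genes were 30.8% and 30.7% in clone 1, and 31.5% and 30.6% in clone 2. ULBP1 averaged 1.06 CPM in clone 1, 3.87 CPM in clone 2, 3.54 CPM in the libraries labelled rescue and 7.16 CPM in wild-type cells, and fell in both clones (log2 fold changes -2.74 and -0.87). PVR, a ligand of DNAM-1, rose in both (0.47 and 0.24), and MICA fell in both (-0.42 and -0.14).

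Of 10 tested genes for proteins held by a GPI anchor, 8 were higher, THY1 among them, and 2 lower in clone 1. In clone 2, 4 were higher and 5 lower, THY1 among the lower ones. Among all tested genes 30.8% were higher and 30.7% lower in clone 1, and 31.5% and 30.6% in clone 2. NT5E (CD73), which makes adenosine outside the cell, averaged 0.806 CPM in clone 1, 1.55 CPM in clone 2, 2.18 CPM in the libraries labelled rescue and 0.228 CPM in wild-type cells. The glypican gene GPC4 rose in both clones (0.62 and 0.72), and GPC2, a glypican studied as a target in neuroblastoma, fell in both (-1.17 and -0.52). FUT4, a fucosyltransferase of the neolacto branch of glycolipids, averaged 15.1 CPM in clone 1, 6.19 CPM in clone 2, 6.60 CPM in the libraries labelled rescue and 17.7 CPM in wild-type cells.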
